A study of Mus musculus with 6 samples.

Results

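Cadherins and protocadherins are calcium-dependent adhesion proteins that hold cells to one another, and the genes described here are the classical cadherins and the protocadherins that lie outside the large protocadherin clusters. They were taken as every gene whose symbol is Cdh or Pcdh followed by a number alone, which gave 34 of the 24411 genes counted, 23 cadherins and 11 protocadherins. The rule also took cadherins that are not classical, such as Cdh13, Cdh16, Cdh17, Cdh23 and Cdh26, and left out Pcdh11x, an unclustered protocadherin whose symbol ends in a letter. Bulk RNA-seq was compared between 3 libraries from mice lacking a large enhancer of Atoh7 (labelled Atoh7 Large Enhancer KO, here enhancer KO) and 3 libraries from WT mice, all at postnatal day 18. The labels name no strain, sex, litter or agent, and do not say which bases the deletion removes or whether each library is 1 animal. The protocol names cerebellum and the tissue field names retina. The sum of 16 granule neuron markers lay between 2410 and 2989 CPM (counts scaled to sequencing depth) in the enhancer KO libraries and between 3755 and 4479 CPM in the WT libraries. The sum of 11 photoreceptor markers lay between 9.95 and 14.4 CPM in enhancer KO and between 8.20 and 8.91 CPM in WT. All 16 granule neuron markers but only 3 of the 11 photoreceptor markers had enough reads to be tested, so the markers went with cerebellum.

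Classical cadherins bind the same or a related cadherin on the facing cell through their outermost extracellular domain, and their cytoplasmic tail binds beta-catenin and p120-catenin, which connect the junction to actin. Type I members, such as N-cadherin, carry broad adhesion, while type II members are expressed in restricted sets of neurons and help sort axons and nuclei in brain development. Most unclustered protocadherins fall into a delta-1 and a delta-2 group by their cytoplasmic motifs, while Pcdh12, Pcdh15 and Pcdh20 are placed in neither here. Several delta-2 members recruit the WAVE regulatory complex, an activator of actin branching. In the cerebellum these families are known for patterned expression across Purkinje cell stripes, granule neurons and their afferents.

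Each enhancer KO library held 36849747 to 40858310 reads in genes and each WT library 22812075 to 33076111 such reads. Reads outside annotated exons made up 17.4% ± 0.735 of all reads in enhancer KO and 32.4% ± 1.56 in WT (SD, n = 3 each). WT replicate 2 was the shallowest library, with 12.9% of its gene reads on the ribosomal RNA gene Rn45s and 20.4% of its reads unmapped. WT replicate 1 was the only library with high Xist (1054 CPM) and no Ddx3y reads, while the other libraries had 0.743 to 1.37 CPM of Xist, so the sex of the animals was not balanced. Atoh7, on chromosome 10 at 63099651 to 63101279 of mm10, had 28, 33 and 29 reads in enhancer KO, against 63, 42 and 72 in WT (edgeR log2 fold change -1.41 ± 0.205, SE; adjusted p = 0.000353). P-values throughout measure the spread between these libraries.

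Levels were compared between genes as RPKM, which divides CPM by the spliced length of the gene in kilobases. Pcdh9, a delta-1 protocadherin, was the most abundant member in every library, with a mean of 54.7 ± 2.94 RPKM in enhancer KO and 69.6 ± 5.58 RPKM in WT (SD, n = 3). It held 19.4% to 21.003% of the summed CPM of all 34 members in the enhancer KO libraries and 23.4% to 26.5% in the WT libraries. Next came Cdh22, a type II cadherin of brain and pituitary, with 22.6 ± 1.22 RPKM in enhancer KO and 20.6 ± 0.934 RPKM in WT, then Pcdh7 with 18.8 ± 0.329 and Cdh2 with 15.1 ± 0.248 RPKM in enhancer KO. At the other end, Cdh16, a kidney cadherin, had at most 2 reads in any library and Cdh17, an intestinal cadherin, at most 5, and neither was tested. Cdh26 had 17 to 24 reads in enhancer KO and 3 to 15 in WT. The summed level of all members was 1852 ± 20.98 CPM in enhancer KO and 1909 ± 80.3 CPM in WT (SD, n = 3), and these ranges overlapped.

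**Figure D1:**
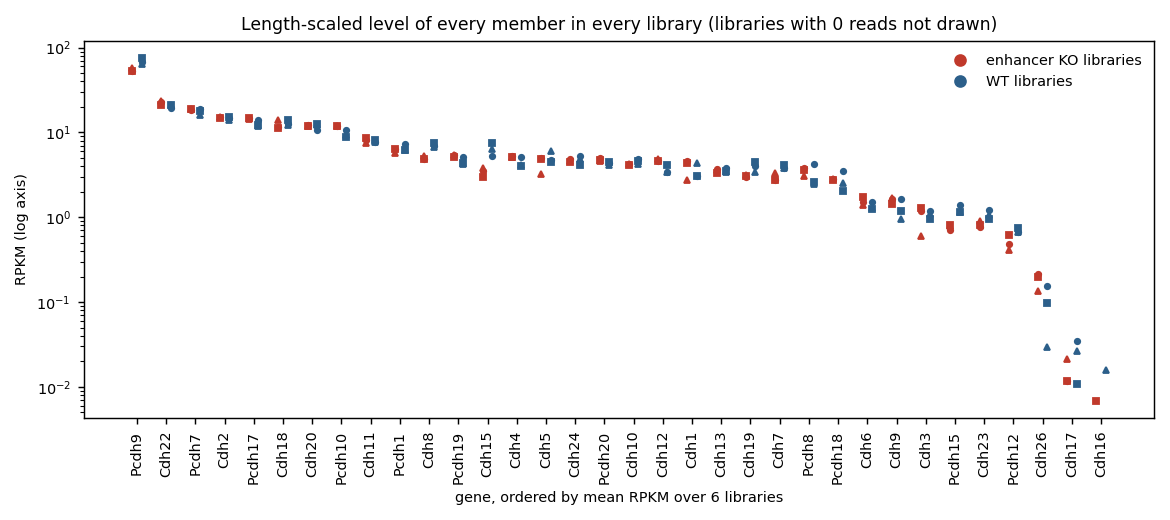
RPKM of all 34 members (log axis) in each library, ordered by their mean over the 6 libraries, with enhancer KO in red and WT in blue and replicates 1, 2 and 3 as circles, squares and triangles. Pcdh9 stands above all others, and Cdh16 and Cdh17 lie at the floor.

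Of the 32 members that could be tested, 4 rose and 7 fell in enhancer KO (edgeR quasi-likelihood test, adjusted p under 0.05 over 15846 genes). Cdh12, Pcdh10, Pcdh17 and Pcdh19 rose, and Cdh15, Pcdh15, Cdh8, Cdh7, Cdh23, Cdh19 and Pcdh9 fell. Among all genes tested 13.4% rose and 17.9% fell, and 31.3% changed in either direction, so the share of members called was close to that of other genes. The groups were apart, with no overlap of their ranges, for 13 members, against 44.8% of all genes tested. The median log2 fold change of the members was 0.030, beside 0.00059 over all genes tested. When a fold of at least 1.2 was required, 3 members fell (Cdh15, Pcdh15 and Cdh8) and none rose, against 5.73% and 0.524% of all genes tested. At an unadjusted p under 0.05 that test gave 6 lower and 1 higher. Markers of cell types differed between the groups as well. All but 1 of 16 granule neuron markers fell, while 9 of 12 Purkinje cell markers and 4 of 10 Bergmann glia and astrocyte markers rose. Purkinje markers summed to 8569 ± 195 CPM in enhancer KO and 6749 ± 586 CPM in WT, and Bergmann glia and astrocyte markers to 8182 ± 233 CPM in enhancer KO and 6862 ± 64.1 CPM in WT (SD, n = 3 each). No marker on these lists was at 0 in every library, and their part in the changes of the members was not tested. In bulk RNA, fewer cells of a type and less RNA per cell cannot be told apart.

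**Figure D2:**
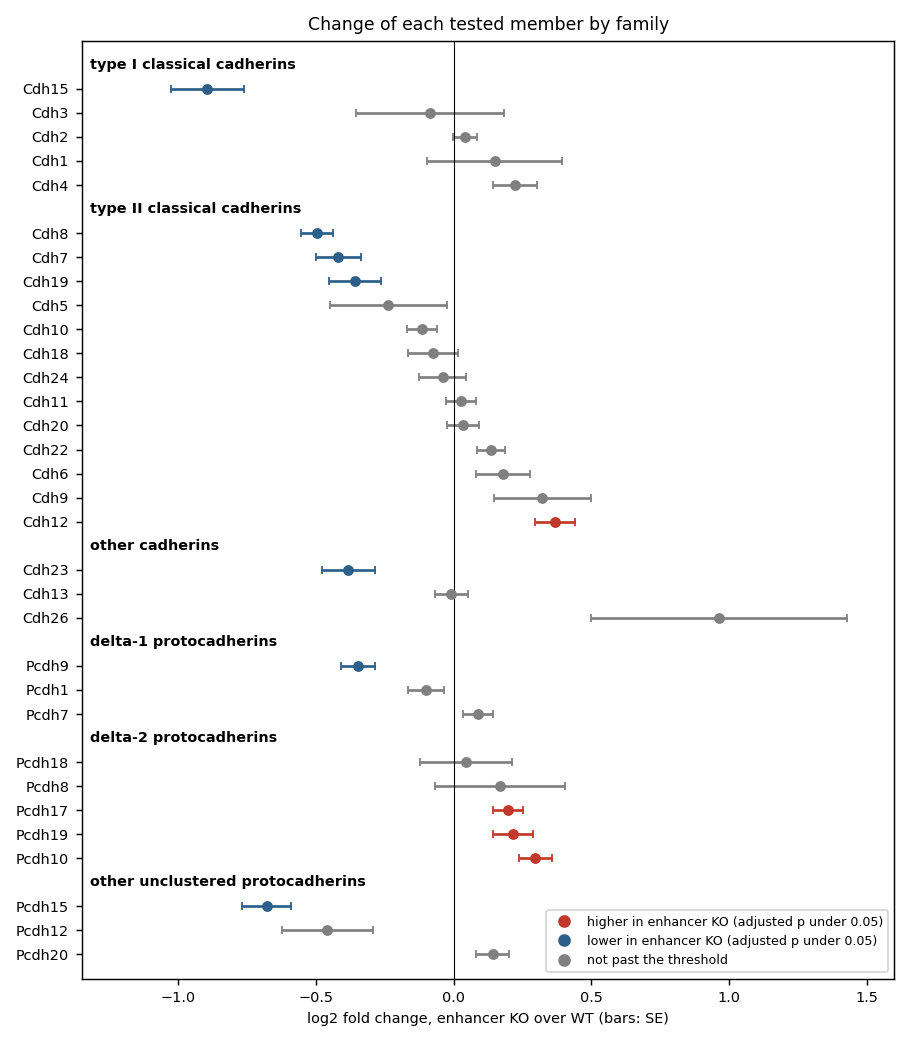
Log2 fold change of enhancer KO over WT with its SE for each of the 32 members tested, by family. Red points rose and blue points fell at an adjusted p under 0.05, and grey points did not pass. Cdh15 lies lowest at -0.89, the 5 delta-2 protocadherins lie above 0 with all libraries, although Pcdh8 and Pcdh18 fall below 0 with WT replicate 1 as the only WT library and Pcdh18 without WT replicate 2, and Cdh26 has the widest bar.

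Cdh15 showed the lowest log2 fold change of any member. It encodes M-cadherin, a type I cadherin named for muscle that is also known from granule neurons of the cerebellum. Its level was 11.4, 9.65 and 12.4 CPM in the enhancer KO libraries, against 17.3, 24.3 and 20.95 CPM in the WT libraries. No library of one group reached the range of the other. Cdh15 fell by 46.2% (edgeR log2 fold change -0.89 ± 0.132, SE; adjusted p = 0.000997). The summed level of the granule neuron markers was 2624 ± 317 CPM in enhancer KO and 4194 ± 386 CPM in WT (SD, n = 3), and their part in the fall of Cdh15 was not tested.

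The other 4 type I cadherins did not pass. N-cadherin, Cdh2, the main cadherin of neural tissue, was at 124, 120 and 121 CPM in enhancer KO and at 119, 123 and 113 CPM in WT, with overlapping groups (edgeR log2 fold change 0.043 ± 0.0433, SE; adjusted p = 0.497). Cdh4, R-cadherin, named for retina, was at 37.8, 37.2 and 37.4 CPM in enhancer KO, against 36.8, 29.5 and 29.7 CPM in WT. Its groups did not overlap, though WT replicate 1 lay next to the enhancer KO libraries, and it just missed the threshold (log2 fold change 0.22 ± 0.0793, SE; edgeR adjusted p = 0.0528). It passed under 9 of 17 other settings, including DESeq2 (adjusted p = 0.0360), and without WT replicate 1 its log2 fold change was 0.34 (edgeR adjusted p = 0.000707). Without WT replicate 3 it was 0.17 (adjusted p = 0.190), and against WT replicate 1 alone 0.047 (adjusted p = 0.699). Cdh1 and Cdh3 are described below with Cdh5.

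Of 13 type II cadherins 1 rose and 3 fell, shares near those of all genes tested (13.4% and 17.9%). Cdh8, a synaptic type II cadherin, was at 37.5, 37.7 and 41.1 CPM in enhancer KO, against 53.8, 58.2 and 52.3 CPM in WT. The groups were well apart, and Cdh8 had the smallest p of all members (log2 fold change -0.50 ± 0.0572, SE; edgeR adjusted p = 6.78e-05), a fall of 29.2%. Cdh7, known in mouse for its part in connecting mossy fibres to granule neurons, was at 27.2, 27.3 and 33.3 CPM in enhancer KO, against 38.1, 41.8 and 37.9 CPM in WT. It fell by 25.2% (log2 fold change -0.42 ± 0.0807, SE; edgeR adjusted p = 0.00259), with enhancer KO replicate 3 nearest to WT. That library also had the highest granule marker sum of its group, 2989 CPM against 2474 and 2410 CPM in enhancer KO replicates 1 and 2. Within WT, replicate 2 was highest for both Cdh7 and this sum. WT replicate 3 had the lowest Cdh7 of WT, but a sum of 4349 CPM, above the 3755 CPM of WT replicate 1. The reading in enhancer KO rests on 1 library, and the part of granule neurons in the fall of Cdh7 was not tested. Cdh19, a cadherin of Schwann cell precursors and other glia, was at 12.9, 13.3 and 13.3 CPM in enhancer KO, against 17.0, 19.3 and 14.7 CPM in WT (log2 fold change -0.36 ± 0.0944, SE; edgeR adjusted p = 0.0130). Leaving out WT replicate 2 or enhancer KO replicate 1 ended this call (adjusted p = 0.0593 and 0.05002). The oligodendrocyte list summed to 33221 to 36540 CPM in enhancer KO and to 30301 to 33690 CPM in WT. Mbp alone was at 17075 ± 915 CPM in enhancer KO and 15240 ± 870 CPM in WT (SD, n = 3). It was the 1 marker of that list called higher, and 2 of the 11 were called lower. The Schwann cell list summed to 2.81 to 4.46 CPM in enhancer KO and to 4.35, 2.93 and 17.2 CPM in WT replicates 1, 2 and 3. For both list sums the groups overlapped, and the part of these lists in the fall of Cdh19 was not tested.

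Cdh12, a brain type II cadherin, was the type II member that rose. Cdh12 was at 28.9, 29.1 and 30.9 CPM in enhancer KO, against 21.8, 25.8 and 21.7 CPM in WT, and every enhancer KO library lay above every WT library (log2 fold change 0.37 ± 0.0738, SE; edgeR adjusted p = 0.00282). The increase was 29.0%, the most among the members called higher. Among the more abundant type II cadherins that did not pass, Cdh22 was at 84.8, 78.7 and 87.6 CPM in enhancer KO and at 72.3, 78.7 and 77.7 CPM in WT (log2 fold change 0.14 ± 0.0519, SE; edgeR adjusted p = 0.0658). It passed with unstranded counts (adjusted p = 0.0335), with no filter on low counts (0.0368), without enhancer KO replicate 2 (0.0364) and against WT replicate 1 alone (0.0346). Cdh18 was at 52.4, 50.9 and 63.3 CPM in enhancer KO and at 56.7, 63.8 and 55.3 CPM in WT, and Cdh20 at 49.2, 48.1 and 48.1 CPM in enhancer KO and at 43.3, 50.01 and 49.0 CPM in WT. Cdh11, first described in osteoblasts, was at 72.3, 76.8 and 66.3 CPM in enhancer KO and at 69.6, 73.1 and 68.9 CPM in WT. For these 3 genes the groups overlapped and the log2 fold changes lay between -0.074 and 0.033. Cdh6, Cdh9, Cdh10 and Cdh24 did not pass either, with log2 fold changes of 0.18, 0.32, -0.12 and -0.040. Cdh9 was at 4.47 ± 1.22 CPM in WT (SD, n = 3), with WT replicate 1 the highest, and passed without that library (edgeR log2 fold change 0.57, adjusted p = 0.0135), while against it alone the value was -0.027.

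**Figure D3:**
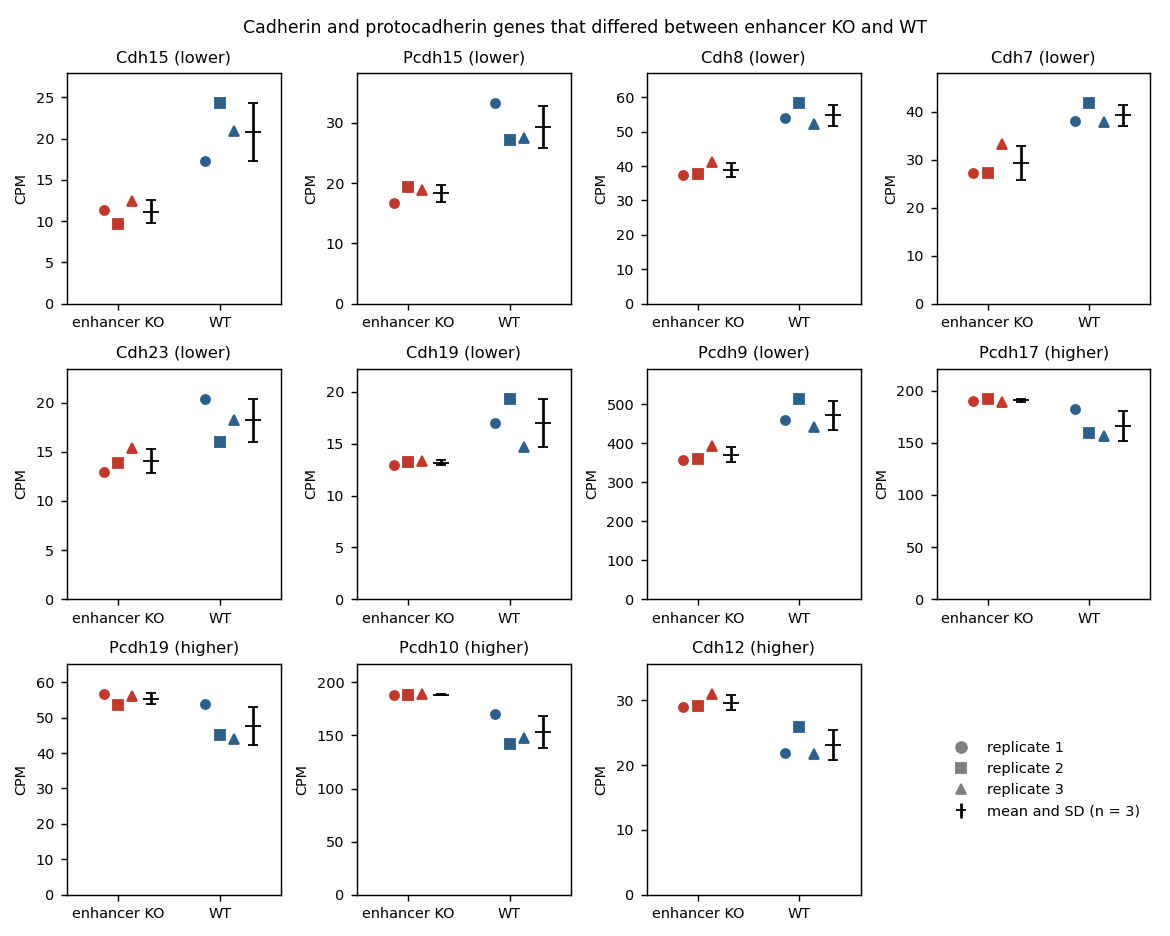
CPM in every library (vertical axis from 0) for the 11 members that passed, with enhancer KO in red to the left of WT in blue and the mean and SD (n = 3) beside each group. The first 7 panels, from Cdh15 to Pcdh9, fell and the last 4 rose. Pcdh19 is the only one whose groups overlap, through WT replicate 1 at 53.8 CPM and enhancer KO replicate 2 at 53.5 CPM.

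Pcdh15 and Cdh23, whose proteins bind each other to form the tip link of sensory hair cells, both fell. Pcdh15 was at 16.7, 19.3 and 18.9 CPM in enhancer KO, against 33.2, 27.1 and 27.4 CPM in WT, a fall of 37.6% (log2 fold change -0.68 ± 0.0896, SE; edgeR adjusted p = 0.000222). Cdh23 was at 12.9, 13.8 and 15.3 CPM in enhancer KO, against 20.4, 16.02 and 18.3 CPM in WT, a fall of 23.3% (log2 fold change -0.38 ± 0.0961, SE; edgeR adjusted p = 0.0103). For both genes WT replicate 1 was the highest library and the groups did not overlap. Both are weakly expressed per length, Pcdh15 with 0.770 ± 0.0600 RPKM in enhancer KO and 1.23 ± 0.145 RPKM in WT and Cdh23 with 0.828 ± 0.0723 and 1.08 ± 0.129 RPKM (SD, n = 3). They are also the only members on chromosome 10, the chromosome of Atoh7: Cdh23, at 60302748 to 60696490 of mm10, ends 2.40 Mb from Atoh7, and Pcdh15, at 73099342 to 74649737, starts 9.998 Mb from it. The labels do not give the strain background of the flanking chromosome, and its part in these falls was not tested. Cdh23 lost its call without enhancer KO replicate 1 (adjusted p = 0.0552) and when each library's trend over gene structure was removed (log2 fold change -0.24, adjusted p = 0.0618), whereas Pcdh15 kept it (-0.50, adjusted p = 0.000688).

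Pcdh15 is also known from oligodendrocyte precursor cells. Of the precursor markers, Cspg4 fell to 29.0 ± 2.54 CPM in enhancer KO, against 37.6 ± 3.53 CPM in WT (SD, n = 3; edgeR adjusted p = 0.00462), while Pdgfra, named after its values were seen, was at 81.2 ± 5.70 CPM in enhancer KO and 80.5 ± 3.77 CPM in WT. The 2 markers thus differed in what they showed, and the part of these cells in the fall of Pcdh15 was not tested. Of the other cadherins outside the classical families, Cdh13, the T-cadherin that is anchored to the membrane by a lipid, was at 40.0 ± 1.86 CPM in enhancer KO and 40.2 ± 2.71 CPM in WT (SD, n = 3). Cdh26 had a log2 fold change of 0.96 ± 0.464 (SE) from at most 24 reads a library (edgeR adjusted p = 0.139). It was 1.67 without WT replicate 1 (adjusted p = 0.0314) and 0.47 without WT replicate 3 (adjusted p = 0.451).

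Among delta-1 protocadherins, Pcdh9 fell and Pcdh1 and Pcdh7 did not pass. Pcdh9 was at 358, 361 and 394 CPM in enhancer KO, against 460, 514 and 441.1 CPM in WT. The groups did not overlap, and Pcdh9 fell by 21.4% (edgeR log2 fold change -0.35 ± 0.0614, SE; adjusted p = 0.00139). Pcdh7 was at 196, 199 and 203 CPM in enhancer KO and at 203, 188 and 171 CPM in WT (log2 fold change 0.088 ± 0.0545, SE; edgeR adjusted p = 0.249), and Pcdh1 at 56.6, 55.5 and 51.0 CPM in enhancer KO and at 64.1, 55.0 and 55.2 CPM in WT (-0.099 ± 0.0660). In both genes WT replicate 1 was the highest WT library, and without it Pcdh7 passed as higher (log2 fold change 0.15, edgeR adjusted p = 0.0182).

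Among delta-2 protocadherins 3 of 5 members rose, where 13.4% of all genes tested did, and with so few members the count is a description only. Pcdh10, also known as OL-protocadherin, was at 188, 188 and 189 CPM in enhancer KO, against 171, 142 and 147 CPM in WT (log2 fold change 0.30 ± 0.0599, SE; edgeR adjusted p = 0.00354), a rise of 22.8%. Pcdh17, a synaptic protocadherin, was at 190, 192 and 190 CPM in enhancer KO, against 183, 160 and 157 CPM in WT (0.20 ± 0.0545, SE; adjusted p = 0.0171). Both genes were even among the enhancer KO libraries and highest in replicate 1 among the WT libraries. Pcdh19, an X-linked gene whose human counterpart is mutated in an epilepsy of girls, was at 56.6, 53.5 and 56.1 CPM in enhancer KO, against 53.8, 45.1 and 43.9 CPM in WT (log2 fold change 0.22 ± 0.0715, SE; edgeR adjusted p = 0.0401). Here the groups overlapped.

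The size of these 3 rises depended on WT replicate 1. Without that library, which leaves only libraries with Ddx3y reads, the log2 fold changes were 0.38 for Pcdh10, 0.27 for Pcdh17 and 0.32 for Pcdh19 (edgeR adjusted p = 1.17e-05, 0.000134 and 0.000676). Against WT replicate 1 alone, a lone sample whose spread is taken from the other group, they were 0.17, 0.085 and 0.064, and of the 3 only Pcdh10 passed (adjusted p = 0.0399, 0.278 and 0.552). Pcdh17 also dropped out when WT replicate 2, WT replicate 3 or enhancer KO replicate 2 was left out (adjusted p = 0.0585, 0.0725 and 0.0550), and Pcdh19 without any library other than WT replicate 1 (adjusted p from 0.0608 to 0.153). The other delta-2 members showed the same split within WT. Pcdh8, an activity-induced protocadherin also called arcadlin, was at 17.5, 16.5 and 14.1 CPM in enhancer KO, against 19.5, 11.7 and 11.3 CPM in WT, and passed as higher without WT replicate 1 (log2 fold change 0.48, edgeR adjusted p = 0.00342). Pcdh18 was at 15.3, 14.9 and 15.0 CPM in enhancer KO, against 18.7, 10.9 and 13.8 CPM in WT, and did not pass (adjusted p = 0.874). With all libraries Pcdh8 did not pass either (adjusted p = 0.643). The sum of 10 midbrain transcription factors was also highest in replicate 1 among the WT libraries, with 77.0, 55.1 and 63.6 CPM in WT replicates 1, 2 and 3, and was 61.7 to 71.7 CPM in enhancer KO. Its genes differed in this. In the same order of WT replicates, Gata3 was at 8.70, 3.52 and 4.05 CPM and Tfap2d at 3.85, 0 and 0.089 CPM. Tfap2d was at 3.98 to 5.95 CPM in enhancer KO and did not pass (edgeR adjusted p = 0.350). Otx2 was highest in WT replicate 3 (11.3, 10.6 and 13.9 CPM) and Pou4f1 in WT replicate 2 (5.58, 7.13 and 5.71 CPM). Barhl2 was the 1 gene of the 10 called lower, where 17.9% of all genes tested fell. Its log2 fold change was -0.48 to -0.29 when each library was left out. The part of this list in the split was not tested.

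**Figure D4:**
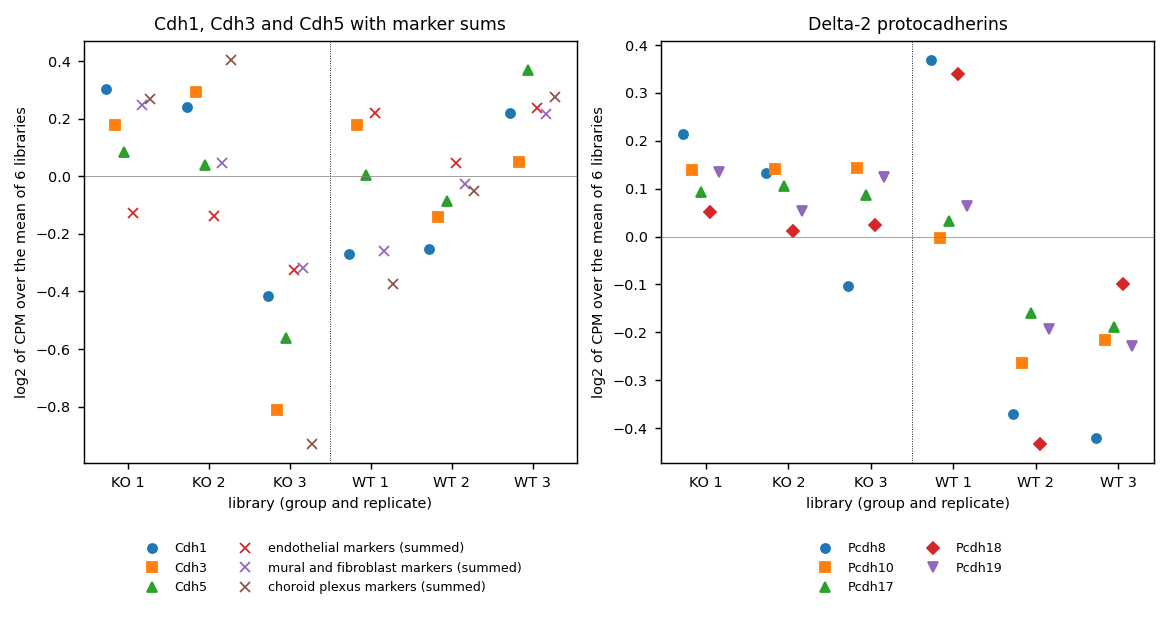
Level of each gene or summed marker list in each library, as log2 of its CPM over the mean of the 6 libraries, with enhancer KO to the left of WT. Left, Cdh1, Cdh3 and Cdh5 with endothelial, mural and fibroblast, and choroid plexus markers, all lowest in enhancer KO replicate 3. Right, the 5 delta-2 protocadherins, all highest within WT in replicate 1.

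The remaining unclustered protocadherins were Pcdh12 and Pcdh20. Pcdh12, an endothelial protocadherin, was at 2.95, 3.77 and 2.49 CPM in enhancer KO, against 4.10, 4.54 and 4.05 CPM in WT. Its groups did not overlap, and it just missed the threshold (log2 fold change -0.46 ± 0.166, SE; edgeR adjusted p = 0.0545). It passed with limma-voom (adjusted p = 0.0454) and without enhancer KO replicate 2 (0.0204), but not with DESeq2 (0.0906) or without enhancer KO replicate 3 (0.153). Of 12 markers of endothelial cells 8 were lower too, with values given below, and their part was not tested. Pcdh20 was at 27.4, 26.2 and 25.1 CPM in enhancer KO, against 24.1, 24.4 and 22.9 CPM in WT, without overlap, and missed the threshold as well (edgeR log2 fold change 0.14, SE 0.0616; adjusted p = 0.105).

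Cdh1, Cdh3 and Cdh5, grouped here after their values were seen, encode the cadherins of epithelium (E-cadherin), placenta and other epithelia (P-cadherin) and endothelium (VE-cadherin). They differed mainly within groups. Cdh1 was at 20.9, 19.998 and 12.7 CPM in enhancer KO and at 14.0, 14.2 and 19.7 CPM in WT. Cdh3 was at 5.24, 5.67 and 2.64 CPM in enhancer KO and at 5.24, 4.20 and 4.79 CPM in WT, and Cdh5 at 21.1, 20.5 and 13.5 CPM in enhancer KO and at 20.01, 18.8 and 25.7 CPM in WT. For all 3 genes enhancer KO replicate 3 was the lowest library of the 6, and none passed (edgeR adjusted p = 0.701, 0.843 and 0.459). The choroid plexus list was also lowest there, at 799 CPM, against 1836 and 2015 CPM in enhancer KO replicates 1 and 2 and 1176 to 1844 CPM in WT, and so was the mural and fibroblast list, at 373 CPM against 388 to 551 CPM elsewhere. None of the markers of these lists was at 0 in every library. Endothelial markers differed between the groups, with 8 of 12 lower, where 17.9% of all genes tested fell. Their summed levels were 187, 186 and 163 CPM in enhancer KO, against 238, 211 and 241 CPM in WT. None was called higher, but Erg went the other way. It was at 4.35 ± 0.281 CPM in enhancer KO and 3.40 ± 0.240 CPM in WT (SD, n = 3), with an unadjusted edgeR p of 0.0219. Slco1a4, a transporter of the blood-brain barrier, fell to 29.8 ± 1.58 CPM in enhancer KO, against 42.1 ± 0.429 CPM in WT (SD, n = 3; edgeR adjusted p = 5.12e-05). Cdh5 itself had a log2 fold change of -0.24 ± 0.212 (SE), which ranged from -0.34 to -0.055 when each library was left out in turn and stayed short of the threshold each time. The part of these markers in the levels of the 3 cadherins was not tested.

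Members lay in groups along the chromosomes, and neighbours did not always move together. Chromosome 8 held 8 members, of which Cdh8 and Cdh15 fell, and chromosomes 14 and 15 held 5 each. On chromosome 14, Pcdh17 rose and Pcdh9 fell, with Pcdh20 between them. On chromosome 15, Cdh12 rose, and Cdh18, which starts 0.959 Mb beyond its end, and Cdh10 on its other side did not pass. On chromosome 1, Cdh7 and Cdh19, which lie 0.748 Mb apart, both fell, and Cdh20, at 4.99 Mb from Cdh7, did not pass. The span of these genes is mostly intron, with a median summed intron length of 377 kb in the members that fell, 89.1 kb in those that rose and 120 kb in those that did not pass. The shortest of the lower group was Cdh15 with 16.2 kb, and the longest of the higher group was Cdh12 with 1134 kb. Across the 32 members, Spearman's rho between log2 fold change and intron length was -0.085, beside -0.065 across 15694 genes tested with an annotation, given as a description over genes that share their libraries. The share of reads outside exons was 17.4% in enhancer KO and 32.4% in WT, and its part in these changes was not tested. With each library's trend over gene structure removed, 5 members were higher and 6 lower, Cdh4 being added and Cdh23 lost. Of all 15846 genes, 2101 were then higher and 2705 lower.

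**Figure D5:**
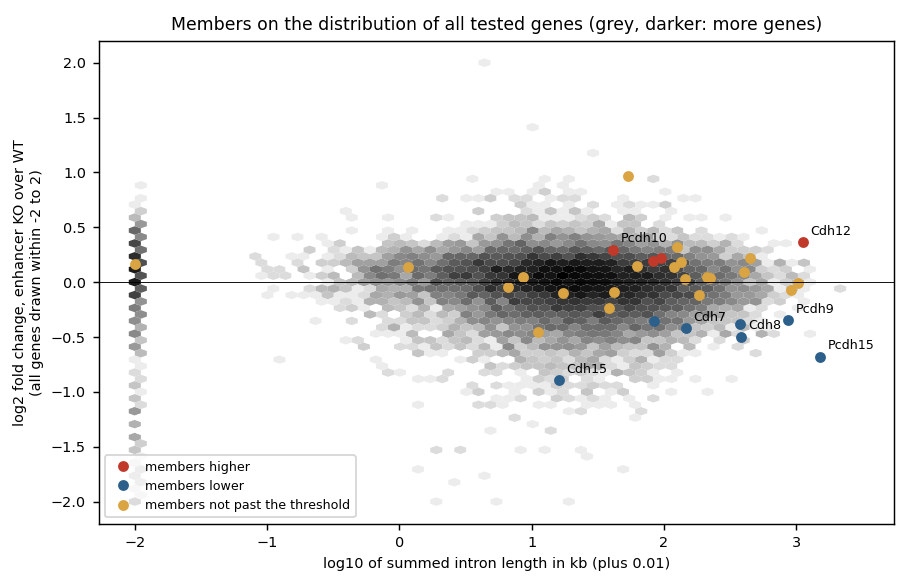
Log2 fold change of enhancer KO over WT against the log10 of summed intron length in kilobases plus 0.01 (genes with no intron at the left edge) for members (coloured) on the distribution of all tested genes with an annotation (grey, darker for more genes, drawn within -2 to 2). Members that fell (blue) range from Cdh15 with 16.2 kb of intron to Pcdh15 with 1527 kb, and Cdh12 rose with 1134 kb.

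Promoter sequence is shown for 4 called members, so that genes that fell can be set beside genes that rose. They are the 2 lowest and the 2 highest by log2 fold change among called members with 1 RefSeq start within 1000 bases of the GENCODE start, a limit that left out Pcdh15 and Cdh12. The windows are the 250 bases before the start of the gene in RefSeq (build GRCm38.p6), 5′ to 3′ on the strand of the gene. Capitals mark the letters CANNTG, the E-box core bound by basic helix-loop-helix proteins, the family of Atoh7, which reads the same on both strands. Cdh15 and Cdh8 fell, and Pcdh10 and Pcdh19 rose. The windows are chr8:122848124-122848373 on the plus strand for Cdh15, chr8:99416472-99416721 on the minus strand for Cdh8, chr3:45378148-45378397 on the plus strand for Pcdh10 and chrX:133688994-133689243 on the minus strand for Pcdh19.
Cdh15: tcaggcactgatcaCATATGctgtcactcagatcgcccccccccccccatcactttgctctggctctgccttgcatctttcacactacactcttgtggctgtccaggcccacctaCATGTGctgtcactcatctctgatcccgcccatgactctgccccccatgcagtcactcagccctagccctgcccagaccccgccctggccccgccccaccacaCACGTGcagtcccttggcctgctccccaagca
Cdh8: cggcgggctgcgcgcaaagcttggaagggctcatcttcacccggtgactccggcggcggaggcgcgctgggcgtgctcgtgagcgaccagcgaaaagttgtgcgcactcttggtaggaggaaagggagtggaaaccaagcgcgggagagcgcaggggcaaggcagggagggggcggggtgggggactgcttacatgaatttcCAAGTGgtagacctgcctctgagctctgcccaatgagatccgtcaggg
Pcdh10: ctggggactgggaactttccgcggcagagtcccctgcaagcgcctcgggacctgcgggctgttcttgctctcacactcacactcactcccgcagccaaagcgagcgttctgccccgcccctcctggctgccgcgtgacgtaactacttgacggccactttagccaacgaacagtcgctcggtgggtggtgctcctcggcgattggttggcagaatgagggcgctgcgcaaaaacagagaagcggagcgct
Pcdh19: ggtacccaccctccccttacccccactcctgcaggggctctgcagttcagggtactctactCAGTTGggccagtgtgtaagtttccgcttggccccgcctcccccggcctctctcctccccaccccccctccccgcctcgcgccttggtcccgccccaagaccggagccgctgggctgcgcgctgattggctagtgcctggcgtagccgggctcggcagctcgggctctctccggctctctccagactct

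The RefSeq start of Cdh15 lies 408 bases inside the GENCODE gene. Its window held 3 E-box cores, those of Cdh8 and Pcdh19 held 1 each, and that of Pcdh10 held none of these letters. RefSeq windows were at hand for 22 members outside chromosome 18, 25 windows in all, since Cdh7 had 3 starts and Pcdh9 had 2 overlapping ones. CANNTG occurred in 13 of the 25 windows, beside 66.2% of all 32851 windows of the same length. Of its forms, CAGCTG was found in 2 of the 25 windows, those of Cdh9 and Cdh12, beside 13.0% of all windows. The GC box GGGCGG, searched on both strands, was found in 9 of the 25 windows, beside 32.7% of all windows. The median ratio of observed to expected CpG was 0.573 in the member windows and 0.373 in all windows. A match of letters describes the sequence and does not mark a binding site.

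Of 12 catenins and junction partners of cadherins tested, 5 fell and none rose (edgeR), where 17.9% and 13.4% of all genes tested did. At an unadjusted p under 0.05, 2 were higher, and past the threshold 1 was higher with DESeq2 and 0 with limma-voom. Ctnnal1, an alpha-catenin-like gene, fell to 25.1 ± 0.421 CPM in enhancer KO, against 33.2 ± 1.81 CPM in WT, and Mllt4, which encodes the actin-binding junction protein afadin, fell to 109 ± 5.14 CPM in enhancer KO, against 137 ± 4.79 CPM in WT (SD, n = 3; edgeR adjusted p = 0.000377 and 0.000256). Jup, which encodes plakoglobin, fell by 0.30 and Vcl, the vinculin gene, by 0.24 on the log2 scale (adjusted p = 0.00756 and 0.00543). The median log2 fold change of this list was -0.14.

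Of 9 subunits of the WAVE regulatory complex, 4 rose and none fell (edgeR), where 13.4% and 17.9% of all genes tested did. With so few subunits the count is a description only. At an unadjusted p under 0.05, 1 was lower, and past the threshold 0 were lower with DESeq2 and 0 with limma-voom. The list median was 0.058. Wasf3 rose to 122 ± 4.69 CPM in enhancer KO, against 102 ± 0.288 CPM in WT (SD, n = 3; log2 fold change 0.26 ± 0.0420, SE; edgeR adjusted p = 0.000719). Brk1, Nckap1 and Abi2 rose by less, with log2 fold changes of 0.17, 0.14 and 0.11 (adjusted p = 0.0159, 0.0282 and 0.0438). Brk1 and Nckap1 did not pass with the trend over gene structure removed (adjusted p = 0.124 and 0.0913). Brk1 also lost its call without enhancer KO replicate 2 (0.0590), and Nckap1 without WT replicate 3, enhancer KO replicate 1 or enhancer KO replicate 3 (0.0897, 0.0951 and 0.0840). Abi2 lost its call without any 1 library other than WT replicate 2 (adjusted p from 0.0803 to 0.133). Among 8 genes for processing and O-mannosylation of cadherins, Tmtc1, an O-mannosyltransferase gene, rose (log2 fold change 0.30, edgeR adjusted p = 0.000796) and Tmtc3 fell (-0.20, adjusted p = 0.0490). Tmtc3 lost its call under most other settings, for example with RLE scaling (adjusted p = 0.0602).

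Larger relatives of the cadherins include planar polarity and desmosomal proteins. A list of the Celsr, Fat, Dchs, calsyntenin, Cdhr and desmosomal cadherins with Pcdh11x and Ret, a receptor tyrosine kinase with cadherin-like domains, had 19 genes tested, of which 4 fell and 2, Clstn3 and Ret, rose. Over all genes tested 17.9% fell and 13.4% rose. Fat2, a giant cadherin of granule neurons that is also on the granule marker list, fell to 258 ± 41.9 CPM in enhancer KO, against 580 ± 36.4 CPM in WT (SD, n = 3; log2 fold change -1.17 ± 0.117, SE; edgeR adjusted p = 0.000566). Celsr3, a seven-pass cadherin of axon guidance, had a log2 fold change of -0.83 ± 0.0612, Dsc2, a desmosomal cadherin, of -0.63 ± 0.176, and Fat1 of -0.40 ± 0.0452 (SE). Dsc2 had only 48 to 74 reads a library (edgeR adjusted p = 0.0165) and passed under 12 of 17 other settings. With DESeq2, 3 genes of the list fell. Of the clustered protocadherins, 59 genes on the deposited tables, 54 were tested. Of these, 1 rose and 14 fell, where 13.4% and 17.9% of all genes tested did, and their median log2 fold change was -0.12. Genes of the alpha and gamma clusters share their last exons, so reads there cannot be given to 1 gene with certainty, and the difference from the unclustered members was not tested.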

How the data were processed

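RNA was sequenced from 3 enhancer KO and 3 WT samples. The deposited values are raw read counts per gene with no normalization by the authors, made with Trimmomatic and STAR on mm10 per the submitters' processing notes. Tool versions, annotation, aligner options: not given in the sources used here. Of the strand columns, the one with nearly all stranded reads was used (1.62% to 1.88% on the other strand), and 4 rows that name no gene were left out, of which reads outside exons took 16.8% to 34.1% of all reads.

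With edgeR 4.0.16 (R 4.3.3), filterByExpr kept 15846 of 24411 genes, and TMM-scaled counts were given to its quasi-likelihood test (robust, two-sided), with Benjamini-Hochberg adjustment over all genes and a threshold of 0.05. The SE was derived from the log2 fold change and the F statistic. CPM uses TMM-scaled library sizes. Lengths and positions came from GENCODE mouse release 21, of the same build, in which all 34 members matched by symbol. The method was also run on 3 sets of simulated counts with 200 genes changed per set, far fewer than the 4964 genes called here. Those sets do not show how it behaves when so many genes change.

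Members and lists were chosen with earlier results of these data known. By the rule for named genes, values in every library are given for members past the threshold and for the 10 with the highest RPKM, and up to 4 genes past the threshold are named from each other list. Further members near the threshold, and Pdgfra, were named after their values were seen. So were Gata3, Tfap2d, Otx2, Pou4f1, Erg, Clstn3 and Ret, which the rule did not name. Alternatives tried were scaling by RLE or by library size alone, no filter, a filter at 1 CPM, a replicate block, a 1.2-fold minimum, unstranded counts, limma-voom (limma 3.58.1), DESeq2 1.42.0, removal of each library's trend over gene structure (mgcv 1.9.3), leaving out each library, and WT replicate 1 as the only WT library.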

Additional observations from a re-analysis of the deposited data

How the results depend on the processing

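Of the members called, 4 higher and 7 lower, Cdh15, Pcdh15 and Cdh8 kept their call under all 17 alternatives tried, with log2 fold changes from -1.02 to -0.61, from -0.84 to -0.50 and from -0.54 to -0.43. With a minimum fold of 1.2 they were the only members called, so that 0 were higher and 3 lower (edgeR glmTreat; at an unadjusted p under 0.05, 1 higher and 6 lower), beside 0.524% and 5.73% of all genes. DESeq2, with no minimum fold, called 5 higher and 7 lower, beside 2020 and 2412 of all 15846 genes. Leaving out each library gave 2 to 9 higher and 5 to 8 lower members: 2 higher without WT replicate 2 or 3, and 9 without WT replicate 1, when Cdh4, Cdh9, Cdh26, Pcdh7 and Pcdh8 were added. The calls over all genes moved too. Without WT replicate 1, 2214 of 16048 genes were higher, without WT replicate 2 1803 of 16126, and without WT replicate 3 1479 of 16051. Lower genes numbered from 2181 to 2710 when each library was left out. Cdh7 lost its call with WT replicate 1 as the only WT library (adjusted p = 0.0773). Several members that did not pass changed sign: Cdh13 with library size alone (0.053), with no filter (0.0024) and with unstranded counts (0.013), Cdh24 with library size alone (0.018), Cdh10 and Cdh20 with the structure trend removed (0.014 and -0.066), and Cdh9, Pcdh7, Pcdh8 and Pcdh18 with WT replicate 1 as the only WT library (-0.027, -0.0022, -0.26 and -0.29). The choroid plexus gene Ttr was at -0.018 with the block, -0.036 with limma-voom and -0.025 with the trend removed, and Kl at 0.034 with WT replicate 1 as the only WT library. Leaving out 1 library also changed signs among uncalled genes, within -0.023 to 0.083 for Cdh11, -0.049 to 0.050 for Cdh13, -0.031 to 0.080 for Cdh20, -0.11 to 0.030 for Cdh24, -0.28 to 0.19 for Cdh3, -0.096 to 0.27 for Pcdh18, -0.39 to 0.14 for Kl and -0.18 to 0.37 for Ttr. The causes were not tested. Same-numbered libraries did not deviate together (r = 0.0526, -0.0386 and -0.0795), so no pairing by replicate number was seen. These values cannot exclude a pairing, and the labels name none. With the replicate block, 5 members were higher and 8 lower, Cdh4 and Pcdh12 being added, beside 1961 and 2635 of all 15846 genes. Depth limits Cdh26, Cdh16 and Cdh17, which had at most 24 reads in any library.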
